A study of Mus musculus with 9 samples.

Results

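Beta-defensins are small secreted peptides, each held together by 3 disulfide bridges that pair 6 cysteines. In the mouse many of their genes are read in the male tract, and 6 of them were described here in whole testes of mice with a changed *Kpna6* gene. *Defb19* and *Defb36* were taken as the Sertoli-type members, and *Defb2*, *Defb22*, *Defb38* and *Defb39* as the epididymal ones. The 6 were chosen by their estimated counts and their TPM values in these same libraries, out of 32035 genes for which both could be summed. For that reason their levels and differences are given as a description, with no test. TPM is a level per transcript length that is scaled to the same total in every library.

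*Kpna6* encodes importin α7, a carrier that brings proteins into the nucleus. The study compared testes of 15-week-old C57Bl6/N males of 3 genotypes, with 3 libraries each. WT males carried the intact gene. In *Kpna6*ΔIBB/ΔIBB males (importin α7ΔIBB/ΔIBB) exon 2 was removed, and a start codon in exon 3 gives a shortened protein without the domain that binds importin β. In *Kpna6*-/- males (importin α7-/-) a gene trap sits in intron 1. Both lines had been crossed back to C57Bl6/N. Both alleles are present in every cell of the animal. Within 1 line, a change in a somatic cell of the testis therefore cannot be told apart from a response to changed germ cells. The study also describes a testis-specific first exon past the gene trap, from which germ cells of *Kpna6*-/- males still make the whole protein. By its staining, Sertoli cells of these males had none. In *Kpna6*ΔIBB/ΔIBB males both kinds of cell held only the shortened form. The study compared the 2 lines to separate effects in Sertoli cells from those in germ cells. The labels do not say whether the 3 libraries of a genotype came from separate animals, so P-values measure the spread between these libraries, which may be technical.

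Sertoli cells are the supporting cells of the seminiferous tubule, in direct contact with the germ cells. The epididymis is the duct in which sperm mature after leaving the testis, and its lining secretes many beta-defensins into the fluid around the sperm. Beta-defensins are best known as antimicrobial peptides, and several of the male tract coat the sperm surface. Their genes stand in clusters that arose by repeated duplication. Each gene typically has a first exon for the signal peptide and another for the cysteine-rich part.

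The cysteine-rich part is what joins these genes and what separates their branches. It is therefore shown for the 6 members. The runs come from the GENCODE M21 transcripts (GRCm38), read from the codon of the first of the 6 cysteines to that of the last, and capitals mark the 6 cysteine codons.
*Defb19*: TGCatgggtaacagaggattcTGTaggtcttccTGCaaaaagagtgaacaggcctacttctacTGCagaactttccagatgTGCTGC
*Defb36*: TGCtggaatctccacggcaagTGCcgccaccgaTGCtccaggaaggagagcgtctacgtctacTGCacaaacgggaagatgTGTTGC
*Defb22*: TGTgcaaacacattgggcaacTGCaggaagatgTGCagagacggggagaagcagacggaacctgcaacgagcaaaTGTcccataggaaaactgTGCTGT
*Defb2*: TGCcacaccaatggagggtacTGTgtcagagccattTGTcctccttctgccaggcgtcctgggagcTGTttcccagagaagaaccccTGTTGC
*Defb38*: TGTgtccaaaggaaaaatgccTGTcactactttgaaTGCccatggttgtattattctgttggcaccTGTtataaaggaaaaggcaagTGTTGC
*Defb39*: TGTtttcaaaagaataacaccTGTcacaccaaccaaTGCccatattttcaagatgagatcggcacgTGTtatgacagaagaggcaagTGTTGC

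In *Defb19* and *Defb36* the cysteine codons are separated by 6, 3, 9 and 5 other codons, and the last pair is adjacent. *Defb22* keeps the spacing of 6, 3 and 5 with 13 codons in the wide gap, and its coding sequence runs on for 120 codons after the core, against 14 in *Defb36* and 28 in *Defb19*. *Defb2*, *Defb38* and *Defb39* share the spacing 6, 4, 9 and 6. Among these 6 genes the split by spacing thus follows the chromosome and not the tissue named for the member. *Defb22* is an epididymal member with the spacing of the chromosome 2 genes, where 10 of 11 beta-defensins have gaps of 3 and 5 around the wide gap. On chromosome 8, 10 of 26 have gaps of 4 and 6, 6 have gaps of 3 and 5, and 6 have gaps of 3 and 6. Over the whole family the chromosome therefore does not fix the spacing. Over the core, *Defb38* and *Defb39* were identical at 65 of 93 bases (69.9%) and *Defb19* and *Defb36* at 51.7%. *Defb2*, with the same spacing as *Defb38* and *Defb39*, was identical to them at 38.7% and 35.5%.

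All 6 members have 1 annotated transcript with 2 exons. *Defb22* (chr2:152485663-152490138), *Defb19* (chr2:152576086-152580312) and *Defb36* (chr2:152604327-152612729, the only one of these 3 on the plus strand) lie in a cluster of 11 beta-defensins that spans 164 kb. *Defb38* (chr8:19023407-19026566) and *Defb39* (chr8:19052826-19064810), both on the minus strand, are neighbours on chromosome 8, and *Defb2* (chr8:21839926-21843482, plus strand) is in another stretch of it. No member had a match of at least 95% identity over 100 bases to a transcript of another gene. The closest other gene was *Defb11*, which matched *Defb2* at 80.656% over 305 bases. No exon of a member overlaps an exon of another gene, so the unstranded library type does not mix their reads with an antisense gene. RefSeq promoters (GRCm38.p6, the 250 bases before the start) matched 4 of the 6 members, and those of *Defb19* and *Defb2* were missing. The androgen receptor half-site TGTTCT, searched on both strands, occurs 2 times in that of *Defb36* and not in those of *Defb22*, *Defb38* and *Defb39*. At least 1 such match is found in 16.1% and at least 2 in 1.81% of 32851 promoters, and a match of letters is not a binding site. Other motifs were searched too. The TATA box (TATAAA) and the SOX site (AACAAT) were in none of the 4. The CCAAT box occurs 1 time each in *Defb22* and *Defb38*, 2 times in *Defb39* and 0 times in *Defb36* (33.8% of all promoters). The GATA site (AGATAA) occurs 1 time, in *Defb39* (10.0%). Without the *Defb19* promoter, the Sertoli-type and epididymal members cannot be contrasted by these motifs.

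The libraries held between 24859751 and 31484692 estimated counts on genes. *Kpna6*, the targeted gene, had between 2120.8 and 2712.7 counts in *Kpna6*ΔIBB/ΔIBB libraries and between 5965.1 and 9855.8 in WT (log2 fold change -1.79, SE 0.15, adjusted P = 1.94e-05, edgeR). In the libraries labelled *Kpna6*-/- it had between 6820.2 and 7663.7 counts (log2 fold change -0.18, SE 0.14, adjusted P = 0.586), so its total level does not check that label. Without WT replicate 1, which had the fewest *Kpna6* counts of WT, that log2 fold change was -0.38 (adjusted P = 0.000345). Sertoli cell markers were detected, and 22 of 22 had a mean of at least 1 CPM (normalized for library size) in WT. So did 8 of 8 Leydig cell, 6 of 6 peritubular, 8 of 8 macrophage and 6 of 8 efferent duct markers. The same held for 8 of 8 round and 8 of 8 elongating spermatid markers. This threshold shows detection only and is no check of the tissue label. One library stood apart before any comparison, namely replicate 3 of *Kpna6*ΔIBB/ΔIBB. Of 22431 genes with at least 10 counts over the 9 libraries, 64 (0.285%) had more than 50% of their summed CPM in it, and 4 of these 64 were the epididymal members. For the members, and for counts of called genes in the lists that changed without it, values without this library are also given.

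The Sertoli-type members were abundant testis transcripts in every library. *Defb19* had 1153, 856 and 799 TPM in WT replicates 1, 2 and 3. It had 1795, 1642 and 1609 TPM in *Kpna6*ΔIBB/ΔIBB. The *Kpna6*-/- libraries had 1084, 1251 and 1259 TPM. Every *Kpna6*ΔIBB/ΔIBB library was thus above the other 6, while WT replicate 1 lay within the range of *Kpna6*-/-. WT testes averaged 936 ± 190 TPM, *Kpna6*ΔIBB/ΔIBB testes 1682 ± 99.1 and *Kpna6*-/- testes 1198 ± 98.7 (SD, n = 3 each). By mean TPM, which is raised for very short transcripts, *Defb19* ranked 111 of 32035 genes in WT and 37 in *Kpna6*ΔIBB/ΔIBB. In counts after normalization the difference was 1.65-fold between *Kpna6*ΔIBB/ΔIBB and WT (log2 fold change 0.73, SE 0.11), 1.3-fold between *Kpna6*-/- and WT (0.38, SE 0.10) and 1.26-fold between the 2 lines (0.34, SE 0.06).

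*Defb36* stood lower and followed a similar order. It had 162, 139 and 102 TPM in WT replicates 1, 2 and 3. The *Kpna6*ΔIBB/ΔIBB libraries had 312, 268 and 220 TPM. Those of *Kpna6*-/- had 173, 190 and 175 TPM. Here the 3 genotypes did not overlap, with every *Kpna6*-/- library above every WT library and below every *Kpna6*ΔIBB/ΔIBB library. WT testes averaged 134 ± 30 TPM, *Kpna6*ΔIBB/ΔIBB testes 267 ± 46.2 and *Kpna6*-/- testes 180 ± 9.19 (SD, n = 3 each). The fitted difference was 1.81-fold for *Kpna6*ΔIBB/ΔIBB against WT (log2 fold change 0.86, SE 0.15), 1.35-fold for *Kpna6*-/- against WT (0.43, SE 0.12) and 1.33-fold between the lines (0.41, SE 0.10). The comparisons of each line with WT share the WT libraries.

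**Figure D1:**
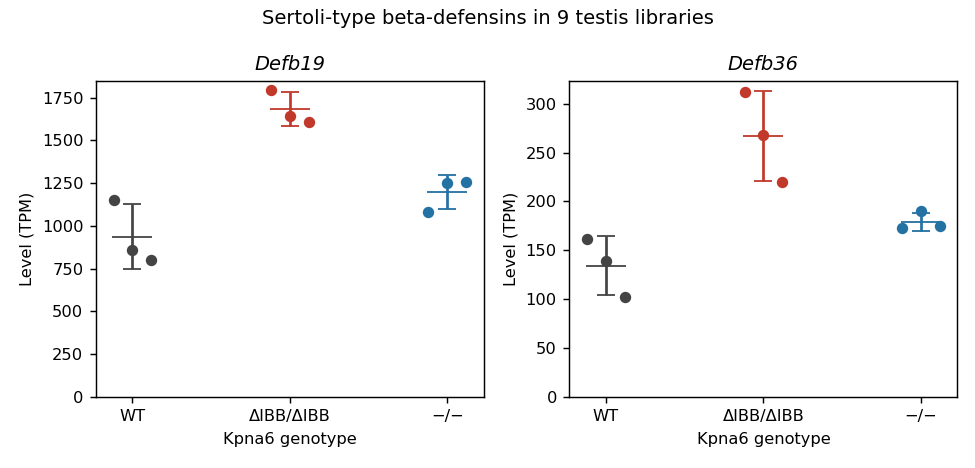
Levels of *Defb19* and *Defb36* in TPM (y axes, from 0) in each of the 9 testis libraries, by *Kpna6* genotype. Points are replicates 1 to 3 from left to right, and the bar with whiskers is the mean ± SD of 3 libraries. For both genes the 3 ΔIBB/ΔIBB points lie above all other points, from 1609 to 1795 TPM for *Defb19* and from 220 to 312 TPM for *Defb36*.

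Among the members that passed the filter on low counts, which were these 2 of the 6, both were apart between *Kpna6*ΔIBB/ΔIBB and WT. Apart means here that the TPM values of the 2 groups did not overlap. In that comparison 17.7% of the 18797 genes tested were called higher at an adjusted P below 0.05, and the values of the contrast had been used in choosing the members. The median log2 fold change over all genes tested was 0.009. *Defb36* alone was apart between *Kpna6*-/- and WT, and both were apart between the lines. Of all genes tested, 0.889% were called higher in *Kpna6*-/- than in WT, and 13.5% in *Kpna6*ΔIBB/ΔIBB than in *Kpna6*-/-. These shares and the 17.7% are of genes called by edgeR. How many of all genes were apart in TPM was not counted, so the shares give no background for being apart. Without replicate 3 of *Kpna6*ΔIBB/ΔIBB the log2 fold change was 0.77 for *Defb19* and 0.99 for *Defb36*. Over 14 alternative settings it ranged from 0.63 to 0.89 for *Defb19* and from 0.7 to 1.0 for *Defb36*. Against WT, *Kpna6*-/- ranged from 0.28 to 0.54 for *Defb19* and from 0.28 to 0.58 for *Defb36*.

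The ratio of the 2 Sertoli-type members changed little between libraries. The TPM of *Defb19* was between 5.75 and 7.8 times that of *Defb36*, and the 3 genotypes overlapped. The mean ratio was 7.03 ± 0.834 for WT, 6.4 ± 0.819 for *Kpna6*ΔIBB/ΔIBB and 6.67 ± 0.468 for *Kpna6*-/- (SD, n = 3 each). This ratio depends on the transcript length that was used. The transcripts have 394 and 468 bases, and kallisto divided the counts by effective lengths of 117.9 to 126.0 and of 186.5 to 196.1 bases. Per annotated base the WT ratio was 5.31.

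The epididymal members were close to the detection limit in all libraries but 1. *Defb22*, a beta-defensin with a long sugar-bearing tail that covers mouse sperm, had 0, 1 and 2 counts in WT replicates 1, 2 and 3. The *Kpna6*ΔIBB/ΔIBB libraries had 5, 9 and 347 counts and the *Kpna6*-/- libraries 5, 2 and 2. The high value was that of replicate 3, which held 93% of all *Defb22* counts of the series. Without it the other 2 *Kpna6*ΔIBB/ΔIBB libraries held 14 counts together, against 3 over the 3 WT libraries and 9 over the 3 *Kpna6*-/- libraries. In normalized CPM the 3 *Kpna6*ΔIBB/ΔIBB libraries (0.191, 0.283 and 10.9) lay above the other 6, of which the highest was *Kpna6*-/- replicate 1 (0.181), but the lower values rest on few counts and *Defb22* did not pass the filter.

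*Defb38*, a defensin of the epididymal lining, had 56 counts in the same library, 1 in *Kpna6*-/- replicate 1 and 0 in the other 7. Its neighbour *Defb39* had 37 counts there, 1 each in WT replicate 1 and *Kpna6*-/- replicate 1 and 0 in the other 6. *Defb2* had 24.3 estimated counts in that library, 1.1 in *Kpna6*-/- replicate 1 and 0 elsewhere. For all 3 the other 2 *Kpna6*ΔIBB/ΔIBB libraries were at 0, so the genotypes overlapped. That single library held 98.2% of the *Defb38*, 94.9% of the *Defb39* and 95.6% of the *Defb2* counts. Relative to a floor of 3 counts over the 3 WT libraries, its level was 55.2-fold higher for *Defb38* and 23.9-fold higher for *Defb2*. The count of that library was taken as exact, so these values are not strict bounds. *Defb2* has fractional estimated counts, and its nearest gene *Defb11* had 67.7 counts in that library and 52.9 in *Kpna6*-/- replicate 1. The split of reads between similar transcripts was not tested. A count of 0 at this depth allows a level of up to 3 counts, and was read as not detectable.

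**Figure D2:**
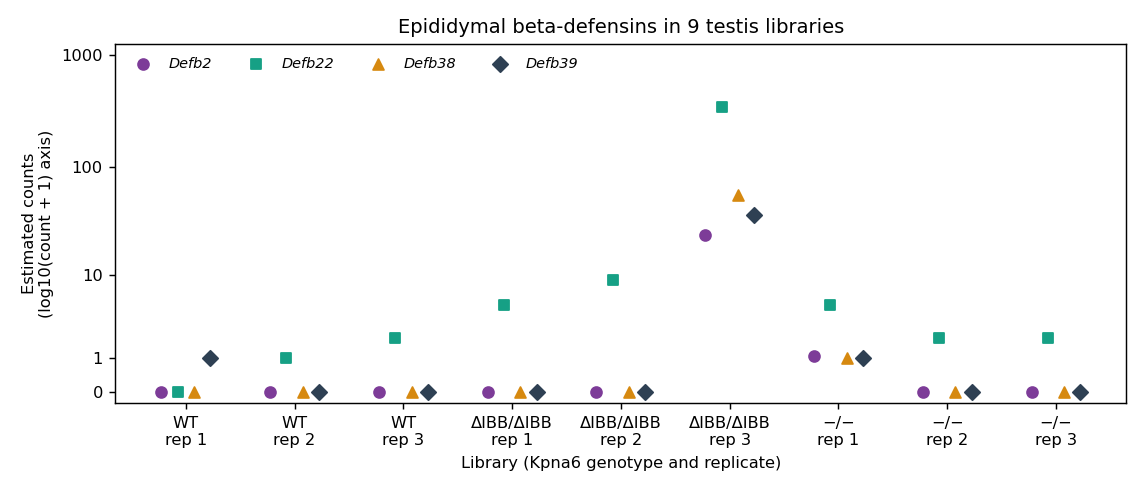
Estimated counts of *Defb2*, *Defb22*, *Defb38* and *Defb39* (y axis, log10 of the count plus 1) in each of the 9 testis libraries (x axis, genotype and replicate). In ΔIBB/ΔIBB replicate 3 the 4 genes lie between 24.3 and 347 counts, and in every other library none is above 9.

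In that library the levels were 46.3 TPM for *Defb38*, 40.8 for *Defb22*, 38 for *Defb39* and 17.2 for *Defb2*. The order differed from that of the counts because the transcripts are short. *Defb39*, with 252 bases, was given an effective length of 38.6 to 43.1 bases and *Defb22*, with 628 bases, one of 345.0 to 355.2. *Defb22* made up 28.7% of the summed TPM of the 4 epididymal members there, and 56.7% when counts were divided by the annotated length.

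The 2 kinds of member therefore had different distributions over the same libraries. Summed over *Defb19* and *Defb36*, WT libraries had 901 to 1315 TPM, *Kpna6*ΔIBB/ΔIBB libraries 1829 to 2108 TPM and *Kpna6*-/- libraries 1258 to 1441 TPM. Summed over the 4 epididymal members, it was between 0.111 and 0.992 TPM in WT and between 0.22 and 3.29 in *Kpna6*-/-. In *Kpna6*ΔIBB/ΔIBB the epididymal sum was 0.716, 1.05 and 142 TPM. In replicate 3 the Sertoli-type sum was 1829 TPM, the lowest of its genotype, and the epididymal members took 7.21% of the level of all 6, against at most 0.261% in the other 8 libraries. The high epididymal level was thus that of 1 *Kpna6*ΔIBB/ΔIBB library and the high Sertoli-type level that of all 3. The next highest epididymal sum was that of *Kpna6*-/- replicate 1, at 3.29 TPM from 8.1 counts. Replicates 2 and 3 of that genotype had 0.22 and 0.25 TPM.

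Markers of the epididymal lining were counted beside this. The list has 30 genes, of which 6 reached a mean of 1 CPM in WT testes, so the tissue itself expresses a part of it. Of the 24 list genes with at least 10 counts, 7 had more than 50% of their CPM in *Kpna6*ΔIBB/ΔIBB replicate 3. *Crisp1*, which encodes a sperm-coating protein of the epididymis, had 2150 counts there, 112 in *Kpna6*-/- replicate 1, 53 in *Kpna6*ΔIBB/ΔIBB replicate 2 and between 2 and 11 in the other 6. *Adam7*, a membrane protein of the epididymal lining, had 549 counts there and at most 12 elsewhere. *Rnase9*, *Rnase12*, *Bsph2*, *Cuzd1* and *Spink8* were the other 5. The list was not uniform, since *Lcn5*, *Ovch2* and *Spink12* were at 0 in all libraries, *Lcn8* and *Gpx5* at 0 in this one and *Lcn9* at 1 count. The summed level of the list was between 293.5 and 321.4 CPM in WT, 373.3, 359 and 484 CPM in *Kpna6*ΔIBB/ΔIBB and between 323.5 and 351.1 CPM in *Kpna6*-/-. None of the 8 efferent duct, 8 seminal vesicle or 22 Sertoli cell markers had more than 50% of its CPM in that library. The part of epididymal tissue in these values was not tested.

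Other beta-defensins moved with the epididymal members in that library. Of 21 others with at least 10 counts, 6 had more than 50% of their CPM in it. They were *Defb28* with 333 counts there and at most 25 elsewhere, *Defb43* with 62 and at most 12, *Defb37* with 48 and at most 5, *Defb26* and *Defb40* with 26 each and at most 3 and 4, and *Defb1* with 11 and at most 2. The next highest count was in *Kpna6*-/- replicate 1 for *Defb28* and in *Kpna6*ΔIBB/ΔIBB replicate 2 for *Defb43*, *Defb37* and *Defb40*. For *Defb26* it was in WT replicate 1 and for *Defb1* in *Kpna6*-/- replicate 3. *Defb22*, *Defb26* and *Defb28* are 3 genes in a row in the chromosome 2 cluster. Further along it come *Defb21*, *Defb19*, *Defb45* and *Defb36*, none of which was high in that library, with *Defb29* (4 counts there and 4 in *Kpna6*-/- replicate 1) between the runs. On chromosome 8, *Defb40*, *Defb37*, *Defb38* and *Defb39* lie within one stretch.

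**Figure D3:**
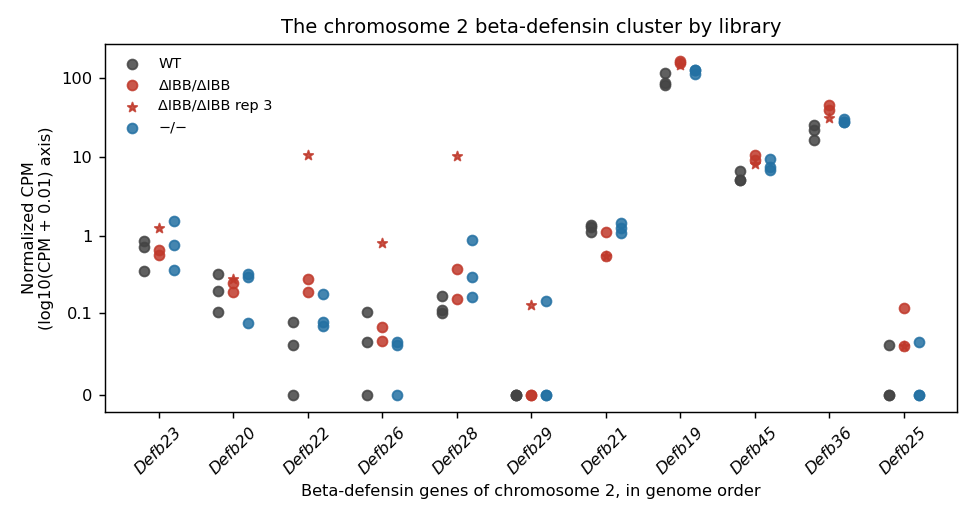
Normalized CPM (y axis, log10 of CPM plus 0.01) of the 11 beta-defensin genes of chromosome 2 in genome order (x axis, not to scale), 1 point per library, coloured by *Kpna6* genotype, with ΔIBB/ΔIBB replicate 3 as a star. The star is far above the other points for *Defb22* (10.9 CPM), *Defb26* (0.818 CPM) and *Defb28* (10.5 CPM) and lies among them for *Defb19* and *Defb36*.

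Beside the members, 39 further genes of the family were in the annotation, including *Spag11a*, *Spag11b* and a pseudogene, and 8 had no count in any library. *Defb19* alone made up 58% of the summed TPM of the family in WT, against 64.5% (*Kpna6*ΔIBB/ΔIBB) and 61.3% (*Kpna6*-/-) in the mutants. *Defb36* held 8.33% in WT, behind *Defb33* (13.8%) and *Defb14* (8.56%), and 10.2% in *Kpna6*ΔIBB/ΔIBB, where *Defb33* held 9.9%. These shares and their order depend on the effective lengths. In WT replicates 1, 2 and 3 *Defb14* had 93, 121 and 120 counts, against 764, 682 and 451 of *Defb36*. The WT levels of *Defb36* and *Defb14* were 134 ± 30 and 138 ± 22.4 TPM (SD, n = 3), and the difference between these 2 genes was not tested. The epididymal members were not among the 6 highest of the family in any genotype.

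Of the 39, 9 passed the filter for *Kpna6*ΔIBB/ΔIBB against WT. Of these 1 rose and 3 fell, with a median log2 fold change of -0.48, where 36.6% of all genes tested were called, 17.7% higher and 18.9% lower. The gene that rose was *Defb45*, which lies between *Defb19* and *Defb36*. It had 199, 157 and 143 counts in WT and 282, 292 and 266 in *Kpna6*ΔIBB/ΔIBB, and the groups did not overlap (log2 fold change 0.73, SE 0.14, adjusted P = 0.00192). The *Kpna6*-/- libraries had 190, 231 and 256 counts, overlapping WT (0.48, SE 0.15, adjusted P = 0.137). Its mean levels in WT (59.3 ± 9.94 TPM), *Kpna6*ΔIBB/ΔIBB (107 ± 13.7 TPM) and *Kpna6*-/- (81.5 ± 15.1 TPM; SD, n = 3 each) stood in the same order as those of its 2 neighbours. Without WT replicate 1, *Defb45* passed the threshold in *Kpna6*-/- too (0.61, adjusted P = 0.0432), where its adjusted P over the alternatives ran from 0.0432 to 0.339.

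The 3 that fell in *Kpna6*ΔIBB/ΔIBB lie on other chromosomes. *Defb30*, on chromosome 14, had 181, 182 and 211 counts in WT and 109, 121 and 110 in *Kpna6*ΔIBB/ΔIBB (log2 fold change -0.79, SE 0.14, adjusted P = 0.00137). With the other allele it had 149, 191 and 161 counts (-0.17, SE 0.13, adjusted P = 0.589), and the 2 lines differed (-0.63, SE 0.12, adjusted P = 0.00213). *Defb15*, on chromosome 8, fell from 21.4 ± 4.51 to 9.42 ± 2.73 TPM (SD, n = 3; log2 fold change -1.31, SE 0.29, adjusted P = 0.00508). *Defb14*, an inducible defensin of skin and mucosa, fell by 0.48 on the log2 scale (SE 0.16, adjusted P = 0.0414) and missed the threshold in 9 of 14 alternative settings, where its adjusted P ranged up to 0.419. The *Kpna6*-/- libraries had 67, 105 and 309 counts of it, and its log2 fold change against WT was 0.58 (SE 0.43, adjusted P = 0.585), or -0.39 without replicate 3.

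*Defb33*, the most abundant of the other beta-defensins in WT, stood at 222 ± 44.5 TPM in WT and 258 ± 15.5 TPM in *Kpna6*ΔIBB/ΔIBB (SD, n = 3 each), with a log2 fold change of 0.09 (SE 0.12, adjusted P = 0.6). It was higher in *Kpna6*ΔIBB/ΔIBB than in *Kpna6*-/- (0.31, SE 0.10, adjusted P = 0.0322), at 187 ± 30.8 TPM (SD, n = 3) in the latter. *Defb11*, *Defb21* and *Defb42* had log2 fold changes of -0.93, -0.77 and -0.38 in *Kpna6*ΔIBB/ΔIBB against WT with adjusted P of 0.136, 0.0732 and 0.0933. Without replicate 3 of *Kpna6*ΔIBB/ΔIBB, *Defb11* (-1.98, adjusted P = 0.000563) and *Defb42* (-0.57, adjusted P = 0.0185) passed the threshold, and 4 of 10 tested beta-defensins fell. *Defb21* passed it without replicate 1 of *Kpna6*ΔIBB/ΔIBB (-1.17, adjusted P = 0.0149). In *Kpna6*-/- against WT, edgeR called 0 of 9, with 1 at an unadjusted P below 0.05, and DESeq2 and limma also called 0. Without WT replicate 1 edgeR called 1. In that comparison 1.6% of 18681 genes were called, 0.889% higher and 0.712% lower. Between the 2 lines 1 of 11 was higher (*Defb33*) and 1 lower (*Defb30*) in *Kpna6*ΔIBB/ΔIBB, against 30.3% of 18752 genes called, 13.5% higher and 16.8% lower. Without *Kpna6*ΔIBB/ΔIBB replicate 3, 1 was higher and 2 lower. Of the 11, 4 were called without *Kpna6*ΔIBB/ΔIBB replicate 1 and 1 without *Kpna6*-/- replicate 3.

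The Sertoli cell markers gave the context of *Defb19* and *Defb36*. All 22 passed the filter. In *Kpna6*ΔIBB/ΔIBB against WT 21 rose and 1 fell, where 17.7% of all genes tested were called higher and 18.9% lower, and the median log2 fold change was 0.59. Without *Kpna6*ΔIBB/ΔIBB replicate 3 the counts were also 21 and 1, with a median of 0.64. *Inha*, the α subunit of the hormone inhibin, rose by 1.21 (SE 0.09, adjusted P = 1.39e-05), *Aard* by 0.77 (SE 0.05, adjusted P = 6.61e-06), and *Clu*, which encodes the secreted chaperone clusterin, and *Ctsl*, a lysosomal protease, by 0.59 each (adjusted P = 8.15e-05 and 0.000276). *Cldn3*, a tight junction protein, fell by 0.76 on the log2 scale (SE 0.06, adjusted P = 1.39e-05). Against WT, 4 of 22 rose in *Kpna6*-/-, namely *Inha* (0.62, adjusted P = 0.00643), *Shbg* (0.66, adjusted P = 0.0364), *Aard* (0.32, adjusted P = 0.00151) and *Clu* (0.25, adjusted P = 0.0155), and 0 fell, with a median of 0.21, where 0.889% of all genes were called higher. The calls of *Shbg* and *Clu* were each lost in 7 of 14 alternative settings, with adjusted P up to 0.194 and 0.177, and that of *Inha* in 3, with adjusted P up to 0.134. This count was 8 without WT replicate 1, 2 without WT replicate 2 or 3 or *Kpna6*-/- replicate 2, and 1 without *Kpna6*-/- replicate 1. Between the lines 21 stood higher in *Kpna6*ΔIBB/ΔIBB and 1 stood lower, with a median of 0.38, where 13.5% of all genes were called higher and 16.8% lower. Without *Kpna6*ΔIBB/ΔIBB replicate 3 the median was 0.43.

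**Figure D4:**
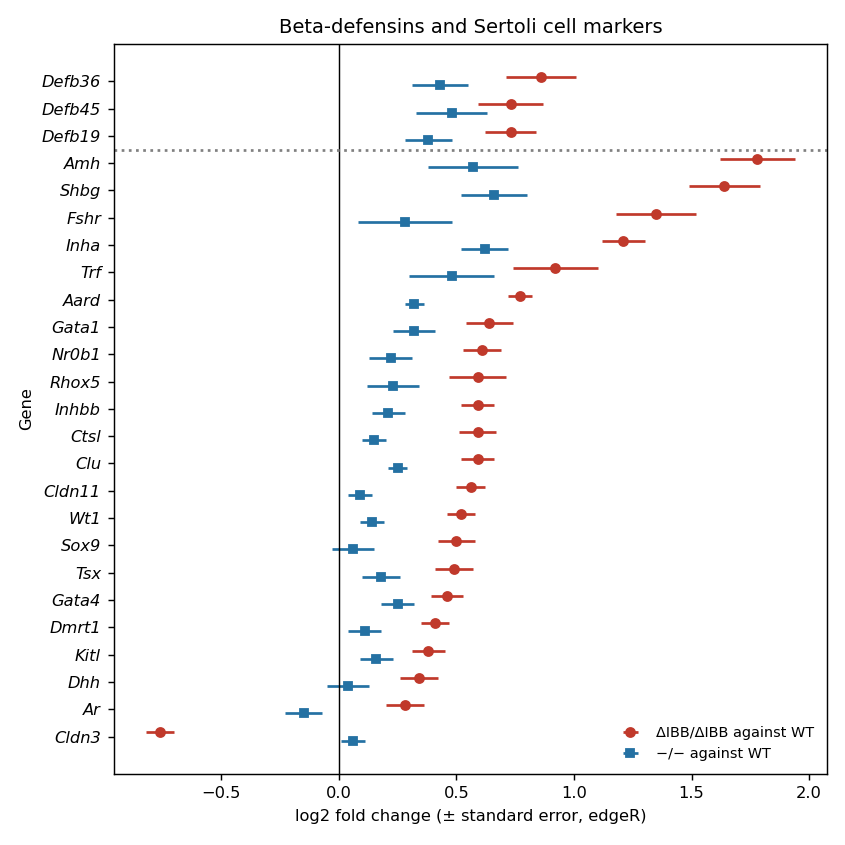
Fitted log2 fold change (x axis) with its standard error of *Defb19*, *Defb36* and *Defb45* (above the dotted line) and of the 22 Sertoli cell markers (below it), for ΔIBB/ΔIBB against WT (red circles) and −/− against WT (blue squares), from 3 libraries a group. The 3 defensins lie between 0.73 and 0.86 in red and between 0.38 and 0.48 in blue, and 21 of 22 markers lie right of 0 in red, with *Cldn3* at -0.76.

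Summed over the 22 markers, WT libraries had 1570 to 1727 CPM, *Kpna6*ΔIBB/ΔIBB libraries 2267 to 2682 CPM and *Kpna6*-/- libraries 1875 to 1953 CPM, so the genotypes stood in the order of the Sertoli-type members. The geometric mean of the markers was 18.4 ± 1.3 TPM for WT, 31.7 ± 1.73 TPM for *Kpna6*ΔIBB/ΔIBB and 21.5 ± 0.816 TPM for *Kpna6*-/- (SD, n = 3 each). As a ratio of TPM to it, *Defb19* stood at 50.5 ± 7.11 for WT, 53.1 ± 1.32 for *Kpna6*ΔIBB/ΔIBB and 55.8 ± 5.84 for *Kpna6*-/-. The ratio for *Defb36* was 7.28 ± 1.43, 8.39 ± 1.01 and 8.35 ± 0.371 in the same order (SD, n = 3 each). The ranges of the 3 genotypes overlapped for both ratios. In whole testis, a changed number of cells of a type and a changed RNA level per cell cannot be told apart. The study counted fewer Sertoli cells per tubule in adults of both lines than in WT. By quantitative PCR relative to *Gapdh*, it found no significant difference for most Sertoli genes measured in adult testes. Only *Cldn3* was lower, in *Kpna6*ΔIBB/ΔIBB alone, and the study proposes that lost germ cells may explain part of it. Of that set, *Rhox5* (log2 fold change 0.59), *Wt1* (0.52), *Gata1* (0.64), *Cldn11* (0.56) and *Clu* (0.59) were called higher here in *Kpna6*ΔIBB/ΔIBB against WT. The difference between the methods was not tested. TPM and CPM are relative to all RNA of a library, and the part of cell numbers in these values was not tested.

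Markers of other cells moved in the same comparison. In *Kpna6*ΔIBB/ΔIBB against WT 8 of 8 round spermatid and 8 of 8 elongating spermatid markers fell (median log2 fold changes -0.46 and -0.37). Their summed levels were 1183 to 1297 against 1521 to 1616 CPM and 12757 to 14434 against 16707 to 18662 CPM. Of 6 peritubular markers 5 rose (median 0.44), of 8 macrophage markers 3 (0.37) and of 8 Leydig cell markers 3 (0.12), and none of these fell, where 17.7% of all genes were called higher and 18.9% lower. Without *Kpna6*ΔIBB/ΔIBB replicate 3 the spermatid counts were 8 and 8, and 4 peritubular, 2 macrophage and 3 Leydig cell markers rose. Of 8 efferent duct markers edgeR called 0, with 1 at an unadjusted P below 0.05, and DESeq2 and limma called 0, while without that library 1 fell. Of 3 seminal vesicle markers tested 2 rose and 1 fell, and without it 2 rose and 0 fell. For *Kpna6*-/- against WT 1 seminal vesicle marker rose, and edgeR called 0 of the spermatid, peritubular, macrophage, Leydig cell and efferent duct markers, with at most 1 per list at an unadjusted P below 0.05. DESeq2 called 1 Leydig cell marker and none of the others, and limma none. The part of these shifts in the levels of *Defb19* and *Defb36* was not tested.

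Of the 12 epididymal markers tested in *Kpna6*ΔIBB/ΔIBB against WT, 4 rose and 1 fell, where 17.7% of all genes tested were called higher and 18.9% lower. The median log2 fold change was 0.31, and without replicate 3 of *Kpna6*ΔIBB/ΔIBB 3 rose and 0 fell with a median of 0.13. The count of both directions was 2 without WT replicate 2 or 3. *Cst12*, a cystatin with 277 ± 34.1 TPM (SD, n = 3) in WT testes, rose by 0.96 (SE 0.09, adjusted P = 2.72e-05), or by 1.02 without that library. *Rhox8*, a homeobox gene that Sertoli cells also express, rose by 0.72 (SE 0.09, adjusted P = 0.000156). *Spink8*, a protease inhibitor, had 29, 24 and 9 counts in WT and 30, 74 and 777 in *Kpna6*ΔIBB/ΔIBB, and its log2 fold change of 3.73 (SE 1.04, adjusted P = 0.0162) was 1.32 without replicate 3 (adjusted P = 0.0337). The call was lost in 4 of 14 alternative settings, namely without WT replicate 2 (adjusted P = 0.0523) or 3 (adjusted P = 0.0655) and with either limma setting (adjusted P up to 0.0946). Against WT, 1 of 12 rose in *Kpna6*-/-, beside 0.889% of all genes. It was *Cst12* (0.42, adjusted P = 0.0155, lost in 6 of 14 alternative settings with adjusted P up to 0.15), and none was called without WT replicate 2 or 3 or without *Kpna6*-/- replicate 1 or 2. Between the lines 3 of 13 were higher and 3 lower, beside 13.5% and 16.8% of all genes. Without replicate 3 of *Kpna6*ΔIBB/ΔIBB 3 were higher and 2 lower, and 10 were called without *Kpna6*ΔIBB/ΔIBB replicate 1.

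Among related defence genes, 0 of 39 alpha-defensins passed the filter. The whey acidic protein and Kunitz inhibitors of the Wfdc and Spint names, some of which are secreted in the same ducts, held 17 tested genes, of which 6 rose and 2 fell in *Kpna6*ΔIBB/ΔIBB against WT, beside 17.7% and 18.9% of all genes tested. Without *Kpna6*ΔIBB/ΔIBB replicate 3, 5 rose and 2 fell. *Eppin*, a sperm-coating inhibitor, rose by 0.92 (SE 0.08, adjusted P = 1.61e-05) and *Wfdc10* by 1.04 (SE 0.09, adjusted P = 1.71e-05). Of 15 tested against WT in *Kpna6*-/-, 4 rose, beside 0.889% of all genes, *Eppin* by 0.51 (adjusted P = 0.00209) and *Wfdc10* by 0.38 (adjusted P = 0.0306). The *Wfdc10* call was lost in 8 of 14 alternative settings, with adjusted P up to 0.15, and that of *Eppin* in 2, with adjusted P up to 0.0533. Of 15 tested between the lines, 3 stood higher and 2 lower in *Kpna6*ΔIBB/ΔIBB, beside 13.5% and 16.8% of all genes, and without that library 4 and 2. *Wfdc13*, *Wfdc15b* and *Wfdc16* had more than 50% of their CPM in *Kpna6*ΔIBB/ΔIBB replicate 3, with 315.2, 159 and 199 counts there and at most 23.5, 9 and 14 elsewhere. Of 4 receptors tested, *Ccr6*, through which beta-defensins attract immune cells, fell in *Kpna6*ΔIBB/ΔIBB against WT (-0.60, SE 0.19, adjusted P = 0.0318) but missed the threshold in 8 of 14 alternative settings, with adjusted P up to 0.118. Between the lines 2 of 4 receptors were lower, or 1 without *Kpna6*ΔIBB/ΔIBB replicate 3, and in *Kpna6*-/- against WT edgeR, DESeq2 and limma called 0, with 0 at an unadjusted P below 0.05.

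Across the 9 libraries and 16710 genes with a mean of at least 1 TPM, the genes whose log2(TPM + 0.1) was most like that of *Defb19* by Pearson correlation were *Lrrc75b* (0.987), *Nipsnap3b* (0.984) and *Entpd2* (0.982). For *Defb36* they were *Smc2* (0.990), *Olfm1* (0.987) and *Smim10l2a* (0.987), although *Smc2* itself moved only between 11.8 and 13.3 TPM. For the summed epididymal members they were *Crisp1* (0.965), *Defb28* (0.963) and *Cuzd1* (0.962), each at its highest level in *Kpna6*ΔIBB/ΔIBB replicate 3, at 77, 112 and 28.6 TPM. These correlations share the 9 libraries and their genotypes and are given as a description.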

How the data were processed

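Poly(A) RNA of whole testes was sequenced by the authors in 9 libraries, and reads were assigned to mouse transcripts (mm10) with kallisto, version 0.45 per the processing notes in the labels, and no release of that transcript set is given in the sources used here. The authors deposited an estimated count per transcript, without normalization, and a TPM value scaled within each library. Of 96626 transcripts 95301 were matched to 32035 genes of GENCODE M21 (GRCm38), which held between 99.54% and 99.56% of the counts, and both values were summed per gene. Because kallisto divides by an effective length, the TPM of very short transcripts is raised, and TPM values were used for levels, correlations and the limma alternatives.

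The 6 members and all gene lists were chosen with earlier results of these data known. Rounded counts of the 6 libraries of each comparison were filtered (filterByExpr), normalized (TMM) and tested with edgeR 4.0.16 (quasi-likelihood test, R 4.3.3), with Benjamini-Hochberg adjustment over all genes tested and a threshold of 0.05. The edgeR test gives no standard error, so the SE printed is the absolute log2 fold change divided by the square root of the test's F statistic. With 3 against 3 libraries the smallest P of an exact permutation test is 0.1. The procedure was tested on simulated data for *Kpna6*ΔIBB/ΔIBB against WT (18708 genes), where it recovered 198 of 200 genes changed 2-fold and called 14 others. The simulation gave every gene the same dispersion and changed only genes with many counts in WT. It therefore does not cover genes with few counts or a library that stands apart. Levels were compared between genes in TPM.

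Beside the members, the genes named were the 10 other beta-defensins with the highest mean TPM (at least 10 counts in all), the 3 genes most correlated with *Defb19*, *Defb36* and the epididymal sum, up to 4 called genes of each other list by mean TPM, and *Kpna6*; values are printed for those a result turned on. *Shbg*, *Cldn3*, *Adam7*, *Defb1*, *Defb26*, *Defb29*, *Defb37*, *Defb40* and the other genes named for a high share in 1 library were chosen after their values were seen. *Rhox5*, *Wt1*, *Gata1* and *Cldn11* were named because the study had measured them, also after their values were seen. Alternatives were DESeq2 1.42.0, limma 3.58.1 on log2(TPM + 1) and log2(TPM + 0.1), no filter or one of 5 counts in a share of 0.47 of the libraries, scaling by library size, all 9 libraries in 1 fit, the replicate number as a block, each library left out, and levels per annotated length, which was chosen after seeing the data. Sequences were compared with blastn 2.17.0+, tables were handled with pandas 2.3.3 and plots drawn with matplotlib 3.10.9.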

Additional observations from a re-analysis of the deposited data

Results flagged for a closer look

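Among the beta-defensins outside the 6 members, the effect of the 2 *Kpna6* alleles differed for *Defb30* and *Defb33* by the direct edgeR test of *Kpna6*ΔIBB/ΔIBB against *Kpna6*-/- libraries. Of 11 tested, 1 was thus higher and 1 lower, where 30.3% of 18752 genes were called, 13.5% higher and 16.8% lower. Between the lines, *Defb30* differed by a log2 fold change of -0.63 (SE 0.12, adjusted P = 0.00213), with all 3 *Kpna6*ΔIBB/ΔIBB libraries, at 109 to 121 counts, below all 3 *Kpna6*-/- libraries, at 149 to 191. That of *Defb33* was 0.31 (SE 0.10, adjusted P = 0.0322), which missed the threshold in 5 of 14 alternative settings, with adjusted P from 0.00565 to 0.108.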

How the results depend on the processing

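Replicate numbers were shared between genotypes, but libraries of the same number did not deviate together (correlations of their deviations between -0.056 and 0.073), so they were not treated as pairs. With the replicate block 6793, 229 and 6032 genes were called in *Kpna6*ΔIBB/ΔIBB against WT, *Kpna6*-/- against WT and *Kpna6*ΔIBB/ΔIBB against *Kpna6*-/-, against 6874, 299 and 5673 without it, and 2 instead of 1 epididymal marker in *Kpna6*-/- against WT.

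Without a filter on low counts, 7 other beta-defensins and 10 epididymal markers were called in *Kpna6*ΔIBB/ΔIBB against WT, 624 genes and 3 epididymal markers in *Kpna6*-/- against WT, and 8 and 13 between the lines. With limma on log2(TPM + 1) and log2(TPM + 0.1) there were 3 epididymal markers in *Kpna6*ΔIBB/ΔIBB against WT. In *Kpna6*-/- against WT they called 32 and 33 genes, 2 listed genes, 1 Sertoli marker and 0 epididymal markers, and DESeq2 2 epididymal markers. Between the lines limma on log2(TPM + 1) called 3 epididymal markers, and 1 fit of all 9 libraries called 1 other beta-defensin. The *Defb19* difference between the lines was 0.44 with scaling by library size and 0.49 with either limma setting. Per annotated length the *Defb19* to *Defb36* ratio in WT was 5.31 and the *Defb22* share 56.7%. Near-identical genes were not summed with any of the 6 members, since none of the 6 had a match. The causes were not tested.

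Leaving out 1 library gave, against WT, 2 to 7 epididymal markers in *Kpna6*ΔIBB/ΔIBB. In *Kpna6*-/- it gave 92 to 518 genes, 3 to 20 listed genes, 0 to 1 other beta-defensins, 1 to 8 Sertoli markers and 0 to 1 epididymal markers, where the first 4 were highest without WT replicate 1. Between the lines it gave 1 to 4 other beta-defensins and 5 to 10 epididymal markers. The log2 fold change turned for *Defb33* in *Kpna6*ΔIBB/ΔIBB against WT (-0.06 to 0.18, negative without WT replicate 3) and for *Defb14* in *Kpna6*-/- against WT (-0.39 to 0.94, negative without *Kpna6*-/- replicate 3). Depth limits the epididymal members, with at most 9 counts in 8 of the 9 libraries.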
